A study of Mus musculus with 24 samples.

Results

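Maturation of adipocytes in culture was followed in 6 of the 24 libraries of the series: 3 libraries of day 7 and 3 of day 3 after adipogenic induction, all from 3T3-L1 cells kept in DMSO. They were chosen by the treatment and the day in the sample labels. 3T3-L1 is an established line of mouse embryonic fibroblasts (pre-adipocytes) that turn into fat cells under a hormone cocktail. DMSO is the solvent control of ML-792, an inhibitor of the enzyme that activates SUMO, used at 0.5 µM in the parallel cultures. Cells were induced with fetal bovine serum, the glucocorticoid dexamethasone, insulin and IBMX, a phosphodiesterase inhibitor that raises cAMP, and at day 3 the mixture gave way to serum and insulin alone. The day and the medium therefore cannot be told apart, and whether the day 3 harvest came before or after the exchange is not given in the sources used here. Each culture, of either treatment and any day, had received 100 µM 4-thiouridine for 45 min. The libraries of each day carry the letters A, B and C and were described as biological replicates. All 12 DMSO libraries (days -2, 1, 3 and 7) shared one fit, days -2 and 1 served as an earlier comparison, and the 12 ML-792 libraries were used to ask whether the change from day 3 to day 7 differed with the inhibitor.

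White adipocytes store energy as triglyceride in a lipid droplet, release it by lipolysis when cAMP rises, take up glucose under insulin through the transporter GLUT4, and secrete adipokines such as adiponectin. In 3T3-L1 cells induction is followed by a short return to the cell cycle, called clonal expansion. The nuclear receptor PPARG and the factor C/EBPα then switch on the genes of the fat cell, and lipid accumulates over the following days. The comparison of day 7 with day 3 thus covers the later days, when cells that have committed fill with fat. Genes of mitosis were still read at day 3, as given below.

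Expression was read in 2 ways from the same libraries. QuantSeq sequences the 3′ ends of polyadenylated RNA, and its total read count is used here for the RNA present. In SLAMseq, 4-thiouridine in new RNA is alkylated and read as cytosine. A read with at least 1 T>C conversion counts as labelled and is used here for RNA made within the labelling time. Such reads include a background of conversions. Its estimate, the 1st percentile of the labelled share over entries with at least 1000 reads, was 0 to 0.0974% in the 6 libraries. The 6 libraries held 15850964 to 19437390 total reads and 146222 to 190933 labelled reads, or 0.922 to 1.15% of the total. Values below are normalized counts, reads per library scaled to a common effective library of 18336656 reads, and a gene is the 3′UTR entry of it with the most reads. Between libraries of the same day, log2 counts correlated over genes at r = 0.967 to 0.984 for total reads and at 0.722 to 0.792 for labelled reads (genes are not independent replicates). Day 7 B stood apart from the other libraries of its day: 112 of 4799 genes with at least 500 reads were over 2-fold away from both others, against 0 for day 7 A and 1 for day 7 C. At day 3 the counts were 3, 68 and 51 of 4764 genes for A, B and C. In bulk RNA, fewer cells of a type and less RNA per cell cannot be told apart.

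The markers of the line fit its label. Adipoq, which encodes adiponectin, had 29117, 28733 and 35854 normalized counts at day 3 and 115160, 104270 and 103750 at day 7, and the fatty acid binding protein Fabp4 had 134810, 195720 and 86476 and 156060, 151990 and 135750. Fabp4 ranges of the days overlapped (log2 fold change 0.09, edgeR adjusted p = 0.884), whereas each day 7 value of Adipoq lay over 2-fold above each day 3 value. The leptin gene Lep was near its floor, at 6.08 to 13.2 and 21.9 to 52.3. Of markers of other cell types, 4 of 10 macrophage, 1 of 6 endothelial, 3 of 7 skeletal muscle and 3 of 8 bone and cartilage genes had enough reads to test. Macrophage markers summed to 95.3 to 206 at day 3 and 118 to 147 at day 7, and the defining Ptprc and Adgre1 were not among those tested. Endothelial markers summed to 4.55 to 15.6 over both days, and bone and cartilage markers to 187 to 237 and 183 to 224. Muscle markers summed to 131 to 228 and 320 to 547. Of the 3 tested, the intermediate filament gene Des rose (2.98 ± 0.33 on the log2 scale, edgeR adjusted p = 2.04e-05). The other 2 lay below 0 without a call, at -1.31 on the log2 scale for the lowest. The muscle factors Myod1 and Myog did not pass the filter.

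Between day 3 and day 7 the total RNA of 1441 of 13274 genes changed at an adjusted p under 0.01 (edgeR quasi-likelihood test). Of these, 806 were higher at day 7 (6.07% of the genes tested) and 635 were lower (4.78%), and the median gene moved by -0.021 on the log2 scale. The median change was 1.71 among genes that rose, 682 of which more than doubled, and -1.39 among genes that fell. Errors after ± on fold changes are standard errors. In all 1441 the 3 libraries of one day lay above the 3 of the other. That separation alone is no rarity, since 37.4% of the genes tested had it. This fit held no term for the letter. With the letter as a replicate block, 2476 genes were called. Of the lists described below, the block raised the calls of branched-chain amino acid catabolism to 14 higher, of cholesterol synthesis to 11 higher and 1 lower, of fatty acid uptake to 6 and 2, of the matrix to 7 and 14, and of the citric acid cycle to 7 higher. Leaving out any 1 of the 6 libraries gave 976 to 1122 calls, whereas leaving out a letter on all days gave 251 (A), 1875 (B) and 451 (C).

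**Figure D1:**
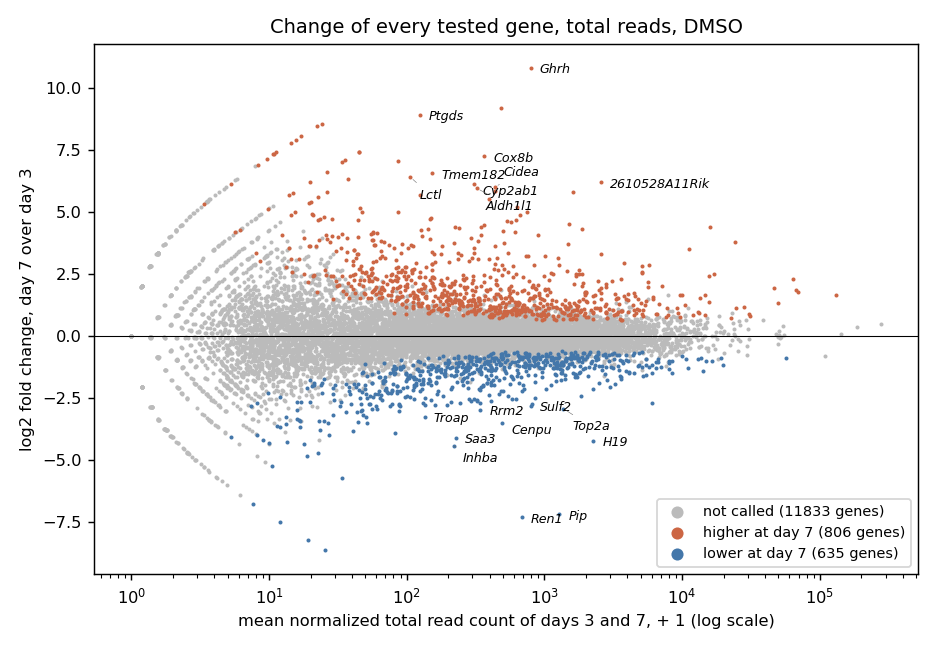
Each point is a gene of 13274 tested; the x axis is the mean normalized total read count of the 6 DMSO libraries of days 3 and 7, plus 1, on a log scale, and the y axis the fitted log2 fold change, day 7 over day 3. The 806 genes called higher are orange, the 635 called lower blue, and the names are from the 10 highest and 10 lowest changes among separated genes with a mean of at least 100.

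Some of the genes with the largest rises were close to silent at day 3. Ghrh, which encodes growth hormone-releasing hormone (entry chr2:157329496-157329596 of mm10, a predicted transcript), had 2.21, 0 and 0 normalized counts at day 3 and 1327, 1517 and 1920 at day 7. Its 2 reads of day 3 against 4326 of day 7 give a ratio of 2040, with an exact 95% counting interval of 566 to 16900 (edgeR adjusted p = 3.68e-09). Ptgds, prostaglandin D2 synthase, had 1 read in all of day 3 and 667 at day 7, a ratio of 630 (exact 95% counting interval 113 to 24900). Cox8b, a subunit of cytochrome c oxidase typical of heart, muscle and brown fat, rose from 3.31, 4.7 and 6.08 to 479.9, 1158 and 523 (log2 fold change 7.24 ± 0.51, edgeR adjusted p = 2.7e-07). Cidea, a protein of lipid droplets with a similar tissue range, rose from 11, 4.7 and 24.3 to 738, 959 and 867 (log2 fold change 6.0 ± 0.44, edgeR adjusted p = 3.89e-07). Further genes among the 10 were Tmem182 (6.54), Lctl (6.4), 2610528A11Rik (6.19), the cytochrome P450 Cyp2ab1 (6.12) and Aldh1l1, an enzyme of folate metabolism (5.95, all log2 fold changes). Of these, 2610528A11Rik was not silent at day 3, with 87.1, 49.4 and 71.7 normalized counts. By the rule of choice, only genes whose days did not overlap were named here.

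The steepest falls included secreted proteins. Ren1 (chr1:133360139-133360320), which encodes renin, had 1228, 799.8 and 2038 normalized counts at day 3 and 10.1, 6.25 and 9.1 at day 7 (log2 fold change -7.31 ± 0.46, edgeR adjusted p = 1.45e-07). Pip, prolactin-inducible protein (chr6:41851964-41852062), fell from 2714, 2775 and 2125 to 24.7, 6.25 and 21.6 (log2 fold change -7.18 ± 0.40, edgeR adjusted p = 4.33e-08). Both were thus among the well-read genes of day 3 and were nearly gone from all 3 day 7 libraries. Reads of Ren1 and of the near-identical Ren2, present in some mouse strains, could not be separated here. Inhba, the subunit of activin A, fell from 354, 656 and 242 to 25.9, 14.6 and 17.1 (log2 fold change -4.44 ± 0.49, edgeR adjusted p = 1.83e-05). The imprinted non-coding RNA H19 varied widely within day 3, at 4585, 1369 and 6907, and lay at 209, 119.7 and 361 at day 7 (log2 fold change -4.22 ± 0.69, edgeR adjusted p = 0.000632). Saa3, an acute phase protein, had 489.6, 312 and 480.2 and 15.7, 36.4 and 21.6 (log2 fold change -4.1 ± 0.37, edgeR adjusted p = 2.48e-06). Sulf2, which trims heparan sulfate outside the cell, had 1495, 1250.3 and 1418 and 210.2, 182 and 201, the least spread of the 10. The other 4 belong to the cell cycle: Cenpu (-3.52), Troap (-3.25), Rrm2 (-2.99) and Top2a (-2.93). The call of Troap was lost without day 3 A, day 7 A or day 7 B (edgeR adjusted p = 0.0117 to 0.0217).

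**Figure D2:**
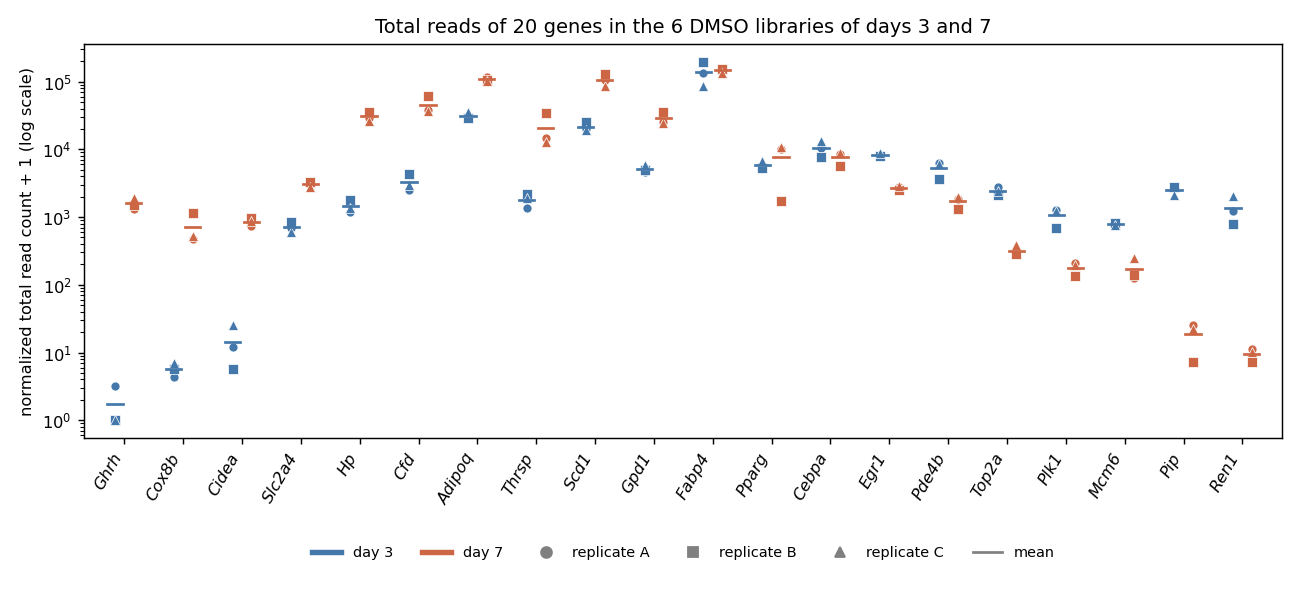
Normalized total read count plus 1, on a log y axis, of 20 genes (x axis) in the 6 DMSO libraries; day 3 is left and day 7 right for each gene, marker shapes are the replicates A, B and C, and bars are means. Ghrh and Cox8b are near 0 at day 3, Ren1 and Pip near 0 at day 7, and for Pparg day 7 B lies below the other libraries.

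Adipokines are the hormones that fat cells secrete. Of 13 members tested 7 were called higher, with a median log2 fold change of 1.66, against 6.07% higher and a median of -0.021 over all genes. Their summed normalized count went from 58450, 59800 and 72730 at day 3 to 228100, 235500 and 218600 at day 7. Adiponectin (Adipoq) rose by 1.79 ± 0.23 on the log2 scale (edgeR adjusted p = 6.94e-05). Cfd, the complement protease adipsin, rose from 2474, 4307 and 2986 to 38592, 60453 and 36596 (log2 fold change 3.8 ± 0.31, edgeR adjusted p = 1.08e-06). Resistin (Retn) rose from 6226, 7166 and 7593 to 21762, 22860 and 21684 (log2 fold change 1.66 ± 0.28, edgeR adjusted p = 0.000646). The chemoattractant Rarres2 (chemerin) reached 2827, 3725 and 4083 from 158, 144 and 243. Angiotensinogen (Agt, 1.13), apelin (Apln, 2.15) and Nampt (2.18) also rose on the log2 scale, whereas Angptl4 (0.26) and Lep (1.71, edgeR adjusted p = 0.0941) did not pass. Between 4 and 9 members were called higher over 17 alternative settings.

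Acute phase genes, which encode plasma proteins of the early response to inflammation, split by gene. In all, 8 of 23 tested members rose and 3 fell, with a median of 0.974. Haptoglobin (Hp) rose from 1193, 1799.6 and 1365 to 29258, 35915 and 26608 (log2 fold change 4.4 ± 0.22, edgeR adjusted p = 2.8e-08). Steap4, a metalloreductase of fat cells, reached 115, 64.5 and 139.9 from 13.2, 3.53 and 0 (log2 fold change 4.19 ± 0.78, edgeR adjusted p = 0.00164), and lost its call without day 7 C (edgeR adjusted p = 0.0107). Hemopexin (Hpx, 2.67), Itih4 (3.64), ceruloplasmin (Cp, 1.99), complement C4b (2.7), C3 (0.85) and Orm1 (2.75) made up the rest of the risers; C3 lost its call without day 3 A or day 7 A (edgeR adjusted p = 0.0106 to 0.0152). Against them Saa3, Serpina3n (from 1450, 1464 and 1058 to 392, 356 and 357) and Serpina3g (-2.32) fell. Lcn2, lipocalin 2, showed no call, with 3527, 4631 and 4663 at day 3 and 3198, 5163 and 3732 at day 7. Orm1, Orm2 and Orm3 are near-identical, as are the Serpina3 and Saa genes, so reads may be split among copies. The risers numbered 2 to 9 over 17 settings.

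Of 18 lipogenesis genes, which make fatty acids, 10 were higher (median 0.853). The stearoyl-CoA desaturase Scd1 had 19743, 25599 and 19573 normalized counts at day 3 and 105050, 130490 and 85626 at day 7 (log2 fold change 2.31 ± 0.23, edgeR adjusted p = 7.52e-06). Thrsp, a nuclear protein that tracks lipogenesis, rose from 1356, 2208 and 1887 to 14632, 33974 and 12966 (log2 fold change 3.5 ± 0.46, edgeR adjusted p = 9.73e-05). Fads1 (2.08) and Fads2 (2.68), the desaturases of polyunsaturated fatty acids, Acacb (1.65) and Pnpla3 (3.31) rose as well. Fatty acid synthase (Fasn) did not, with 28927, 22484 and 31165 at day 3 and 33230, 35798 and 29876 at day 7 (log2 fold change 0.26 ± 0.21, edgeR adjusted p = 0.465), and Elovl6 had a log2 fold change of -0.62 (edgeR adjusted p = 0.175). Without day 3 A the list kept 6 calls, and over 17 settings it had 4 to 13.

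Among 15 genes of triglyceride synthesis 5 rose and 1 fell (median 0.67). Gpd1, which makes glycerol 3-phosphate, rose from 4648, 4895 and 5791 to 25509, 36163 and 24426 (log2 fold change 2.49 ± 0.23, edgeR adjusted p = 3.84e-06). Pck1, which feeds glyceroneogenesis, rose by 2.45 ± 0.33 on the log2 scale (edgeR adjusted p = 0.000106), and the glycerol channel Aqp7 rose by 3.88 ± 0.55 on the log2 scale (edgeR adjusted p = 0.000174). The acyltransferase Agpat9 fell (-1.4). Dgat2, the last step of triglyceride synthesis, was higher by 0.85 on the log2 scale but lost its call without any 1 of 5 libraries (edgeR adjusted p = 0.0217 to 0.0405). The list kept 3 risers without day 3 A, day 7 A, day 7 B or day 7 C. Of 21 genes of droplets and lipolysis 10 rose (median 0.872, or 0.714 with the sparse Plin5 at its bound). Cidec, which enlarges droplets, rose from 18370, 18063 and 21184 to 65660, 95534 and 60270 (log2 fold change 1.94 ± 0.24, edgeR adjusted p = 4.54e-05). Receptors that set lipolysis rose from low counts: Adrb3, the β3-adrenergic receptor, from 41.9, 34.1 and 15.8 to 490.0, 464 and 273, and the adenosine receptor Adora1 by 4.34. The lipases Pnpla2 (0.64, edgeR adjusted p = 0.0338) and Lipe (0.52, edgeR adjusted p = 0.114) and the droplet coat gene Plin1 (0.39, edgeR adjusted p = 0.34) did not pass. Without day 3 A or day 3 B, 6 droplet genes were called.

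Genes of fatty acid uptake had 3 of 15 members higher and 1 lower (median 0.481, or 0.42 with sparse genes at their bound). The transporter Cd36 rose by 1.31 ± 0.22 on the log2 scale (edgeR adjusted p = 0.000796) and the lysosomal lipase Lipa rose by 1.4 ± 0.16 on the log2 scale (edgeR adjusted p = 2.35e-05), whereas Fabp5, a binding protein found in many cells, fell by 1.52 ± 0.22 on the log2 scale (edgeR adjusted p = 0.00018). Lipoprotein lipase (Lpl) had a log2 fold change of 0.48 (edgeR adjusted p = 0.0464). Among 21 genes of insulin action and glucose use 3 rose and 3 fell (median -0.0683). Slc2a4, the insulin-responsive transporter GLUT4, rose from 679, 834 and 605 to 3199, 3242 and 2779 (log2 fold change 2.12 ± 0.17, edgeR adjusted p = 1.08e-06). Tusc5, a partner of GLUT4 in trafficking, rose from 108, 76.5 and 120.4 to 1759, 995 and 2346 (log2 fold change 4.06 ± 0.34, edgeR adjusted p = 1.39e-06). The general transporter Slc2a1 (GLUT1) rose by 1.19 too. Irs2, an adaptor of the insulin receptor, fell by 1.18 ± 0.19 on the log2 scale (edgeR adjusted p = 0.000613), and the receptor gene Insr itself had -0.081 (edgeR adjusted p = 0.847). Igf1r (-1.13) and Igfbp4 (-1.18) also fell, both losing the call without any 1 of 5 libraries (edgeR adjusted p = 0.0141 to 0.0349 and 0.0115 to 0.0283), so that 1 of the 3 falls was called without day 3 A, day 3 C, day 7 A, day 7 B or day 7 C.

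Of 24 transcription factors of adipogenesis tested, 4 rose (against 6.07% of all genes) and 1 fell (against 4.78%), with a median of 0.143. Cebpa, which encodes C/EBPα, had 10550, 7612 and 13280 normalized counts at day 3 and 8632, 5598 and 8962 at day 7 (log2 fold change -0.44, edgeR adjusted p = 0.236). Pparg had 5432, 5387 and 6629 at day 3 and 10260, 1739 and 10881 at day 7. Day 7 B was the lowest of the 6 libraries and day 7 A and C the highest, so the fitted change of 0.39 ± 0.43 did not pass (edgeR adjusted p = 0.601). Without day 7 B it was 0.86 with an edgeR adjusted p of 0.00557. Klf15, a factor that rises with glucocorticoids and in mature fat cells, rose from 62.9, 139 and 86.3 to 942, 822 and 1186 (log2 fold change 3.36 ± 0.30, edgeR adjusted p = 2.25e-06). The liver X receptor Nr1h3 (LXRα) rose by 1.66 ± 0.20 on the log2 scale (edgeR adjusted p = 4.3e-05), as did Ddit3 (1.05). Mlxipl, the carbohydrate-responsive factor ChREBP, was sparse, at 6.62, 11.8 and 3.65 and 39.3, 90.6 and 58, and lost its call without any 1 of the 6 libraries (edgeR adjusted p = 0.0133 to 0.0474). Klf5 fell (-1.78) but lost its call without day 7 A or day 7 B (log2 fold change -1.715 to -1.583, edgeR adjusted p = 0.0103 to 0.011). Cebpb, an early factor, had a log2 fold change of -0.96 (edgeR adjusted p = 0.0192).

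Catabolism of branched-chain amino acids, a fuel of mature fat cells, had 9 of 24 genes higher (median 0.736). Its summed count was 38550, 41750 and 44550 at day 3 and 75760, 78920 and 77480 at day 7. Among them were Bckdha (1.79) and Dbt (1.64), subunits of the branched-chain ketoacid dehydrogenase, and the propionyl-CoA carboxylase subunit Pccb, which went from 980.3, 984 and 1416 to 3689.8, 2779 and 3722 (log2 fold change 1.59 ± 0.19, edgeR adjusted p = 4.44e-05). Dbt lost its call without day 3 A, day 3 C or day 7 B (edgeR adjusted p = 0.0105 to 0.0119), and without day 3 A the list kept 5 calls. Fatty acid oxidation had 4 of 24 higher and 1 lower (median 0.41). The last was Cpt1a (-0.8), which lost its call without day 3 A, day 3 C, day 7 A or day 7 C (edgeR adjusted p = 0.0113 to 0.0197). The citric acid cycle had 2 of 23 higher (median 0.138), against 6.07% of all genes. Without day 3 A the citric acid cycle kept 0 calls and fatty acid oxidation 2 rises, as it did without day 3 B, and without any other single library the citric acid cycle kept 1. Of 74 genes of oxidative phosphorylation 3 were higher (median 0.208), against 6.07% of all genes. All 3 were the tissue-restricted cytochrome c oxidase subunits Cox8b, Cox7a1 and Cox6a2. Cox7a1 rose from 7.72, 28.2 and 24.3 to 357, 525 and 394 (log2 fold change 4.41 ± 0.42, edgeR adjusted p = 4.63e-06), and Cox6a2 rose by 3.7 ± 0.52 on the log2 scale (edgeR adjusted p = 0.000156). The oxidative phosphorylation count was 5 with DESeq2 and 15 with the replicate block.

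Genes of thermogenic fat overlap with that set. Of 12 tested, 3 rose (Cidea, Cox7a1 and Cox8b) and Dio2 fell, with a median of 0.122. Dio2, the deiodinase that activates thyroid hormone, was sparse, at 14.3, 12.9 and 13.4 and 0, 0 and 2.27, and kept its call only without day 7 C (edgeR adjusted p = 0.0156 to 0.0334 without each of the other libraries). The uncoupling protein Ucp1 and the factor Prdm16 did not pass the filter, and Ppargc1a had a log2 fold change of -0.52 (edgeR adjusted p = 0.213). Cholesterol synthesis had 7 of 24 genes higher (median 0.567). Fdft1, squalene synthase, rose from 262, 192 and 233 to 824, 1100.2 and 821 (log2 fold change 2.0 ± 0.30, edgeR adjusted p = 0.000282), and Insig1 (1.36) and Sc5d (1.29) rose as well. Hmgcs1, the HMG-CoA synthase of the pathway (-0.58, edgeR adjusted p = 0.0417), did not pass. The count ran from 0 to 11 over 17 settings.

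**Figure D3:**
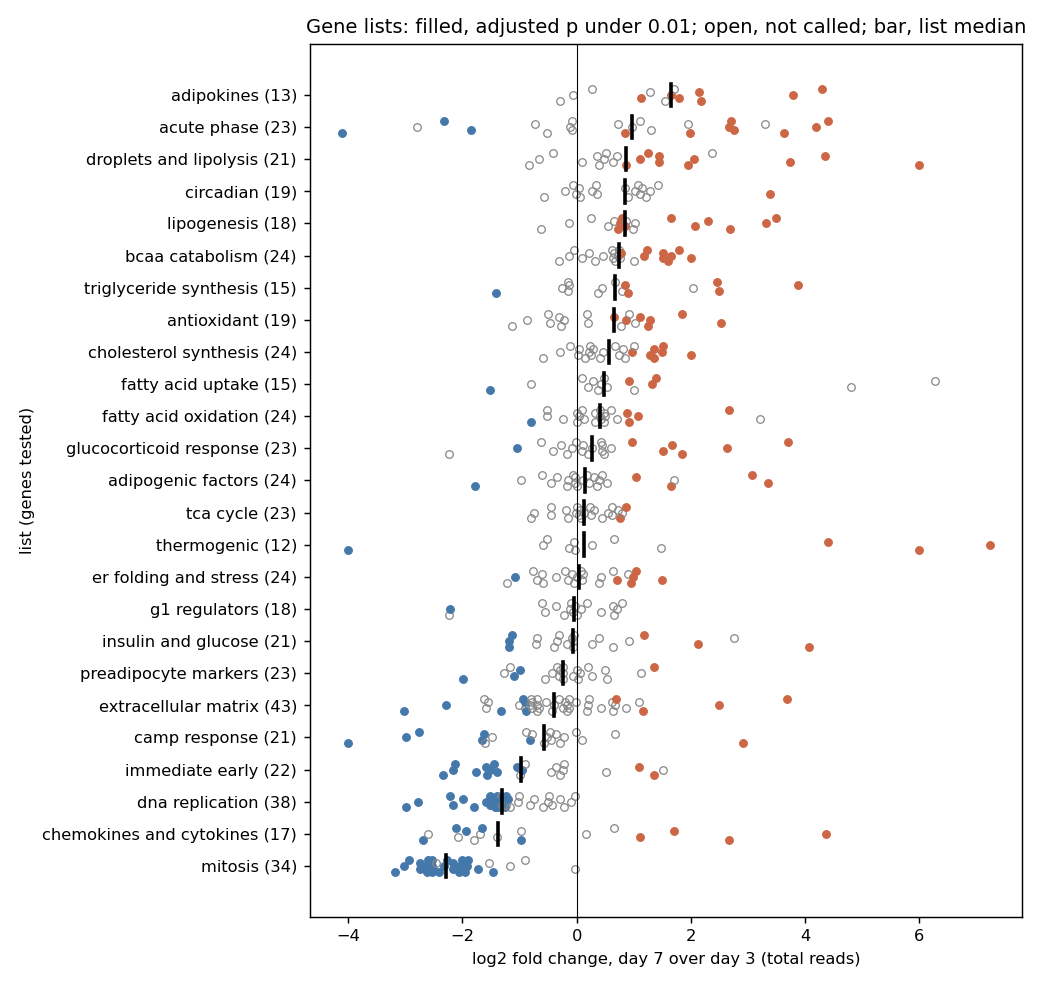
Log2 fold changes of total reads, day 7 over day 3, for the tested members of 25 gene lists; each row is a list, each point a gene, filled where called at an adjusted p under 0.01, and the bar marks the list's median. Members of the mitosis and DNA replication lists all lie below 0.

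IBMX, which raises cAMP, was part of the induction mixture and not of the later medium. Its part in the changes below was not tested. Of 21 genes of the cAMP response 6 fell and 1 rose (median -0.562). Nr4a3, an orphan nuclear receptor, had 79.4, 70.6 and 97.3 normalized counts at day 3 and 11.2, 10.4 and 9.1 at day 7 (log2 fold change -2.99 ± 0.45, edgeR adjusted p = 0.000263). The small GTPase Gem fell from 101, 178 and 174 to 33.7, 14.6 and 18.2 (log2 fold change -2.77 ± 0.36, edgeR adjusted p = 8.85e-05), and Nr4a1 fell by 1.65 ± 0.24 on the log2 scale (edgeR adjusted p = 0.000203). The phosphodiesterases Pde4b (-1.63) and Pde4d (-0.81), which degrade cAMP, were lower, without calls when day 7 B (Pde4b, edgeR adjusted p = 0.0112) or day 7 A (Pde4d, edgeR adjusted p = 0.0107) was left out. Ppp1r3c, a glycogen-targeting subunit of protein phosphatase 1, was the riser, from 733, 1024 and 897 to 5346, 9411 and 5308 (log2 fold change 2.92 ± 0.23, edgeR adjusted p = 8.53e-07). Per1 (-0.013) and Sik1 (-0.29), also on the list, did not pass.

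Immediate early genes, which rise within minutes of a stimulus, had 11 of 22 members lower and 2 higher (median -0.977). Fos fell from 696, 1342 and 1421 to 233, 231 and 313 (log2 fold change -2.15 ± 0.26, edgeR adjusted p = 4.47e-05), and Egr1 from 7910.5, 8016 and 8702 to 2814, 2518 and 2853 (log2 fold change -1.59 ± 0.19, edgeR adjusted p = 4.19e-05). Egr2 (-2.13), Egr3 (-2.34), Ier2 (-1.76), Jun (-1.44), Junb (-1.51) and Dusp6 (-1.57) fell with them. The risers were Jund (1.09) and Klf2 (1.35). Between 7 and 13 members were lower over 17 settings. Of the glucocorticoid response, 6 of 23 genes rose and 1 fell (median 0.263). The metallothioneins Mt1 and Mt2, which bind zinc, went from 62489, 53520 and 70869 to 176570, 228870 and 187280 (log2 fold change 1.67 ± 0.24, edgeR adjusted p = 0.000221) and from 31249, 26628 and 30031 to 104820, 102040 and 109370 (log2 fold change 1.85 ± 0.17, edgeR adjusted p = 2.46e-06). They are near-identical in part of their sequence, so that each value is uncertain. Sult1a1 (3.71), Hif3a (2.63), Map3k6 (1.52) and Tsc22d3 (0.97) rose, Dusp1 fell (-1.04), and Fkbp5 had 0.45 (edgeR adjusted p = 0.089).

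Of 43 matrix genes 4 rose and 6 fell (median -0.388). Tnc, tenascin C, fell from 179.7, 140.0 and 141 to 24.7, 11.4 and 20.5 (log2 fold change -3.02 ± 0.30, edgeR adjusted p = 7.27e-06), and the basement membrane genes Col4a1 (-0.88) and Nid2 (-1.33) fell. Sparc (1.16), the collagen cross-linker Lox (2.49) and the protease inhibitor Timp4 rose, the last from 7.72, 11.8 and 12.2 to 106, 149.9 and 151 (log2 fold change 3.67 ± 0.50, edgeR adjusted p = 0.000123). Without day 7 A, 3 matrix genes were called lower. Preadipocyte markers had 1 of 23 higher and 3 lower (median -0.241), against 6.07% and 4.78% of all genes. Pdgfra, the receptor that marks progenitors, fell by 1.09 ± 0.17 on the log2 scale (edgeR adjusted p = 0.000368) and Cd44 fell by 1.99 ± 0.18 on the log2 scale (edgeR adjusted p = 2.45e-06). Dlk1 (Pref-1), an inhibitor of adipogenesis, kept 3738, 2992 and 4257 at day 3 and 2937, 2877 and 3482 at day 7 (edgeR adjusted p = 0.55). Chemokines and cytokines had 4 of 17 higher and 5 lower. Their median was -1.38, or -0.63 with the 5 sparse members at their bound. Cxcl12 fell from 4424, 5618 and 5307 to 1161, 1569.7 and 1270.5 (log2 fold change -1.94 ± 0.21, edgeR adjusted p = 1.72e-05), and Cxcl1 (-1.65) and Cxcl5 (-2.11) fell too. Ccl6 rose from 19.8, 47 and 29.2 to 543, 1001 and 439 (log2 fold change 4.37 ± 0.39, edgeR adjusted p = 2.31e-06), and Ccl9 (2.66) and Mif (1.71) rose. Without day 7 B, 2 of the 5 falls were called, and without day 3 B, day 3 C or day 7 C, 3 were. Cxcl5 lost its call without day 3 C or day 7 B (edgeR adjusted p = 0.0153 to 0.0178).

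Of the lists read here, mitosis had the largest share of calls. Of 34 mitosis genes 29 fell (4.78% of all genes fell), with a median of -2.29. The summed count of the list was 18060, 14970 and 17300 at day 3 and 3695, 2836 and 4201 at day 7. Top2a, the topoisomerase that untangles sister chromosomes, had 2747, 2084 and 2454 and 285, 285 and 382 (log2 fold change -2.93 ± 0.20, edgeR adjusted p = 2.56e-07). Cyclin B1 (Ccnb1) fell from 681, 359 and 528 to 83.2, 66.6 and 121 (log2 fold change -2.54 ± 0.31, edgeR adjusted p = 4.44e-05), and the kinase Plk1 from 1267, 685 and 1218 to 209, 133 and 194 (log2 fold change -2.56 ± 0.35, edgeR adjusted p = 0.00013). In these 3 genes every day 3 value lay above every day 7 value, a separation that all called genes had. Of the 5 not called, Mki67 had -2.47 (edgeR adjusted p = 0.0537) and Anln, a scaffold of the cleavage furrow, had -0.033 (edgeR adjusted p = 0.971). DNA replication followed with 22 of 38 lower (median -1.3). Rrm2, which makes deoxyribonucleotides, had 563, 719.8 and 528 and 84.3, 62.5 and 81.9 (log2 fold change -2.99 ± 0.24, edgeR adjusted p = 1.02e-06), and Mcm5 of the replicative helicase fell from 608, 638 and 711 to 121, 224 and 146 (log2 fold change -1.99 ± 0.21, edgeR adjusted p = 1.44e-05). The helicase loader Cdc6 fell by 2.78 on the log2 scale. E2f1 (-0.033, edgeR adjusted p = 0.957) and Ccne1 (-0.44, edgeR adjusted p = 0.341) did not pass. Regulators of G1 had 1 of 18 lower, against 4.78% of all genes, and a median of -0.0462. It was Myc, at 775, 1276 and 1307 and 379.9, 61.4 and 283. The value of Myc was lowest in day 7 B, and its call was lost with the replicate block (edgeR adjusted p = 0.0289) and without day 3 B, day 3 C or day 7 C (edgeR adjusted p = 0.0187 to 0.0197). Over 17 settings 13 to 32 mitosis genes and 3 to 29 replication genes were lower, with the least in fits without letter A.

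Promoter sequence was read for whole lists, whether or not their members were called. Windows of 300 bases (250 before to 50 after the start, RefSeq, GRCm38.p6) were given for 28 of the 34 mitosis genes, as 30 promoters, and 31 of the 38 replication genes, as 38. The core TTTGAA of the cell cycle homology region was found, on either strand, in 76.7% of mitosis promoters against 17.9% of all 32851, and CCAAT in 83.3% against 37.4%. Both stood in 70% of them, against 6.95% of all and 10.5% of replication promoters. The E2F motifs TTTCCCGC or TTTGGCGC were in 28.9% of replication promoters, 0% of mitosis promoters and 1.56% of all. A match describes the letters and no binding. Between positions -130 and -1 from the start, 7 mitosis genes called lower held both CCAAT and TTTGAA. In the same window 1 replication gene called lower, Mcm6, held an E2F motif. The 5 mitosis promoters below hold both motifs between positions -130 and -1 from the start and are shown with CCAAT and TTTGAA in capitals (ATTGG and TTCAAA are the same on the other strand); the Mcm6 promoter is shown with TTTGGCGC in capitals. All read 5′ to 3′ along the gene, and the coordinates are of GRCm38.p6.
Top2a (chr11:99024190-99024319, minus strand): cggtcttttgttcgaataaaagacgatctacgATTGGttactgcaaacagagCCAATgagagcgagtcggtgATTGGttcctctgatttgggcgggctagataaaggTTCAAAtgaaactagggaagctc
Ect2 (chr3:27153879-27154008, minus strand): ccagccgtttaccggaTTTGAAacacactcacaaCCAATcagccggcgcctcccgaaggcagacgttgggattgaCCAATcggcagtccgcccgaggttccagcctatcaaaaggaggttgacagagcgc
Ube2c (chr2:164769799-164769928, plus strand): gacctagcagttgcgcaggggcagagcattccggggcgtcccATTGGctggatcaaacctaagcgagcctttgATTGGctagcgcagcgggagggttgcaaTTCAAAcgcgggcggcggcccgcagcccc
Cdc20 (chr4:118437344-118437473, minus strand): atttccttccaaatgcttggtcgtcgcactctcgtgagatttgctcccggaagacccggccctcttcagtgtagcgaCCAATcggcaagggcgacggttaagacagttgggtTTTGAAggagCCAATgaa
Prc1 (chr7:80294346-80294475, plus strand): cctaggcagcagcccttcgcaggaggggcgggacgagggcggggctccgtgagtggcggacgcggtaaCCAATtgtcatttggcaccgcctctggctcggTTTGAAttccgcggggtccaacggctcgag
Mcm6 (chr1:128359706-128359835, minus strand): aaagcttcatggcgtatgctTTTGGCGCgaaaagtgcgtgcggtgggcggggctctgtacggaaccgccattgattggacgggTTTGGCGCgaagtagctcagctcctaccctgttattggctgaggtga
The 5 mitosis genes shown moved by -2.93, -2.73, -2.53, -2.42 and -2.03 on the log2 scale, in that order, and Mcm6 by -2.21. Ect2 lost its call without day 3 B, day 7 A or day 7 B (edgeR adjusted p = 0.0123 to 0.0221). CCAAT was also in 80% of 20 promoters of the cholesterol synthesis list and 62.5% of 16 of the lipogenesis list, and the sterol element TCACNCCAC in 5% and 0%, against 1.24% of all.

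Smaller housekeeping lists moved in part. Antioxidant genes had 7 of 19 higher (median 0.662), among them the glutathione transferase Gstm1 (2.54), catalase (Cat, 1.29) and the secreted superoxide dismutase Sod3 (1.84); without day 3 A, day 3 C or day 7 B, 4 were called. Genes of protein folding and stress in the endoplasmic reticulum had 5 of 24 higher and 1 lower (median 0.0397), with the chaperone Hspa5 at 0.9 (edgeR adjusted p = 0.0113), Trib3 higher by 1.5 and Asns lower (-1.07); without day 3 A, day 3 B or day 7 A, 3 were called higher. Of 19 circadian genes, Npas2 was called, from 8.82, 4.7 and 4.86 to 71.9, 53.1 and 72.8 (log2 fold change 3.39 ± 0.66, edgeR adjusted p = 0.00311), and lost its call without day 3 B, day 3 C, day 7 A or day 7 C (edgeR adjusted p = 0.015 to 0.0166). That list had a median of 0.853, and 0 to 7 of its genes were called over 17 settings. Of all genes, 6.07% were called higher in the main fit. The 20 genes of the SUMO pathway, the target of ML-792, had 0 calls in edgeR (1 with DESeq2, 2 with the replicate block, and 1 higher and 3 lower at an unadjusted p under 0.05) and a median of -0.145 in these DMSO cells. Uba2, a subunit of the enzyme that ML-792 inhibits, had a log2 fold change of -0.6 (edgeR adjusted p = 0.0738).

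Labelled reads gave far fewer calls. Of 6214 genes with enough labelled reads to test, 17 were higher at day 7 (0.274%) and 5 lower (0.0805%), with an unadjusted p under 0.05 for 373 and 296, and the days separated in 15.2%. The count was 50 with DESeq2 (26 higher and 24 lower), 54 with the replicate block, and 37 when scaled by the labelled reads themselves (20 higher and 17 lower). It fell to 13 without day 3 A, 10 without day 3 B and 12 without day 7 B. Genes called in total reads moved the same way in labelled reads in most cases. Of 351 such genes higher in total, 318 lay above 0 in labelled reads (median 1.09), and of 426 lower in total, 373 lay below 0 (median -0.902). Labelled reads are part of the total reads, and of the 5437 other genes 2960 lay above 0 and 2458 below.

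**Figure D4:**
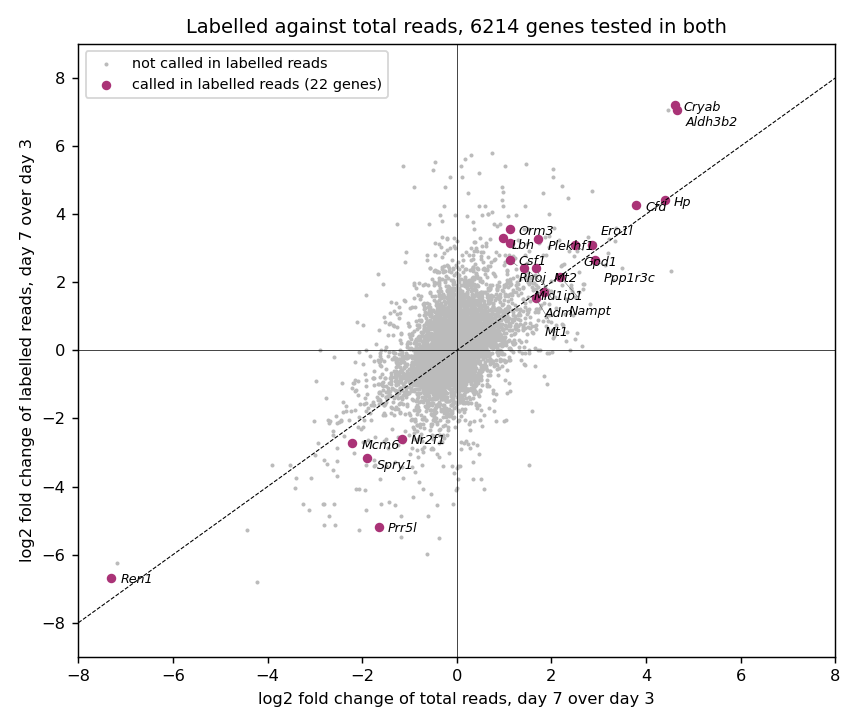
Log2 fold change of labelled reads (y axis) against that of total reads (x axis), day 7 over day 3, for 6214 genes; purple points are the 22 genes called in labelled reads, and the dashed line marks equal change. Ren1 lies at the lower left, and Cryab, Aldh3b2, Hp and Cfd at the upper right.

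Haptoglobin (Hp) had 2.21, 5.88 and 2.43 labelled normalized counts at day 3 and 73.1, 72.9 and 84.2 at day 7 (log2 fold change 4.41 ± 0.67, edgeR adjusted p = 3.28e-05). Gpd1 had 11, 9.41 and 13.4 and 89.9, 119.7 and 84.2 (log2 fold change 3.11 ± 0.54, edgeR adjusted p = 0.000432), and adipsin (Cfd) 1.1, 3.53 and 3.65 and 37.1, 59.3 and 67.1 (log2 fold change 4.26 ± 0.77, edgeR adjusted p = 0.000731). These rises were close to those of their total reads, which were 4.4, 2.49 and 3.8. Aldh3b2, an aldehyde dehydrogenase, had 1 labelled read at day 3 and 183 at day 7, a ratio of 173 (exact 95% counting interval 30.7 to 6870). The small heat shock protein Cryab had 0 labelled reads at day 3 and 8.99, 19.8 and 25 normalized at day 7, at least 5.13-fold higher with 3 reads per library as the floor (edgeR adjusted p = 0.00148). Csf1, a growth factor of macrophages, had 3.31, 3.53 and 1.22 and 18, 35.4 and 21.6 (log2 fold change 3.15 ± 0.51, edgeR adjusted p = 0.000115). Mt1 (1.54), Mt2 (1.7), Ppp1r3c (2.65), Ero1l, an oxidase of the endoplasmic reticulum (3.08), Nampt (2.16), Mid1ip1 (2.43), Rhoj (2.65), Plekhf1 (3.28), Lbh (3.29) and adrenomedullin (Adm, 2.42) completed the risers with Orm3. Labelled reads of Orm3 rose by 3.56 ± 0.47 on the log2 scale (edgeR adjusted p = 1.49e-06). Its total reads were not called (log2 fold change 1.12, edgeR adjusted p = 0.0404), and its reads may be split with the near-identical Orm1 and Orm2. Of the 15 largest rises 11 lost the call without at least 1 of the 6 libraries (8 without day 3 A, 10 without day 3 B, 6 without day 3 C, 5 without day 7 A, 9 without day 7 B and 8 without day 7 C, edgeR adjusted p = 0.0102 to 0.263), and Hp, Aldh3b2, Orm3 and Csf1 kept it each time. Without a letter on all days, the call of Hp was lost (edgeR adjusted p = 0.0134 without A and 0.0126 without C), as was that of Csf1 (0.0249 without C). DESeq2 gave no adjusted p for Aldh3b2, Cfd and Cryab. Mt1 lost it without day 3 A or day 3 B (edgeR adjusted p = 0.0157 to 0.0369) and Mt2 without day 3 B (edgeR adjusted p = 0.0201).

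The labelled falls numbered 5. Ren1 had 479, 272 and 749 labelled counts at day 3 and 6.74, 4.16 and 3.41 at day 7 (log2 fold change -6.68 ± 0.49, edgeR adjusted p = 5.08e-15). Prr5l, a partner of the mTORC2 kinase complex, had 55.1, 71.7 and 86.3 and 0, 0 and 5.69 (log2 fold change -5.18 ± 0.71, edgeR adjusted p = 2.67e-06). Spry1, a brake on receptor tyrosine kinases, had 28.7, 48.2 and 53.5 and 3.37, 5.2 and 5.69 (log2 fold change -3.16 ± 0.54, edgeR adjusted p = 0.000283). The helicase subunit Mcm6 fell by 2.73 on the log2 scale and the nuclear receptor Nr2f1 by 2.59 on the log2 scale, and leaving out single libraries ended both calls (edgeR adjusted p = 0.0111 to 0.115 without 5 of the 6 for Mcm6, and 0.059 to 0.0742 without day 3 B, day 7 B or day 7 C for Nr2f1). All 20 mitosis genes tested in labelled reads were below 0, with a median of -2.22, or -0.949 with the 11 sparse ones at their bound; 11 had an unadjusted p under 0.05 and 0 were called by edgeR. Some of the called genes had a labelled share far above that of the whole libraries. Whether such shares come from labelling alone was not tested. In Ren1 the share was 36.6 ± 2.5% (SD, n = 3) at day 3 and 56.9 ± 16.8% at day 7, and leaving out entries over 30% labelled removed Ren1 from the test. In Orm3 it went from 3.67 ± 0.761% to 20.1 ± 3.96%, and in Prr5l from 17 ± 2.35% to 1.39 ± 2.41% (SD, n = 3). The test of shares described next called none of Ren1, Orm3 and Prr5l (edgeR adjusted p = 0.116 for Orm3). The day 7 share of Prr5l rests on its labelled counts of 0, 0 and 5.69.

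Whether labelled reads moved beyond total reads was tested as the labelled share of each gene within its library. Over whole libraries the share was 1.03 ± 0.0869% (SD, n = 3) at day 7 and 1.03 ± 0.115% at day 3, a difference of -0.00287 points (exact permutation over the 6 libraries, two-sided, p = 1, where 3 against 3 can reach 0.1 at best). Of 6214 genes, 1 had a higher share at day 7 (0.0161%) and 0 a lower one (0%), with an unadjusted p under 0.05 for 314 and 135 in the edgeR test. DESeq2 was not run on shares. The gene was 5730408K05Rik, a non-coding RNA (chr19:8888387-8888770) whose locus also holds the small RNAs Snora57 and Mir5136. Its labelled counts were 36.4, 37.6 and 20.7 at day 3 and 193, 230.0 and 25 at day 7, the last being day 7 C at the level of day 3, while its total counts fell from 2168, 2391 and 3075 to 686, 986 and 729 (edgeR adjusted p = 4.74e-05). The call of its share was lost without any 1 of day 3 A, B or C or day 7 A or B (edgeR adjusted p = 0.0271 to 0.183).

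The late changes were set beside the early ones. Between days -2 and 1, which share no library with days 3 and 7, 1016 genes were higher at day 1 (7.65%) and 1248 lower (9.4%). Of the 806 genes that rose from day 3 to day 7, 65 had risen early (8.06% of the late and 6.4% of the early set), 269 had fallen early (33.4% and 21.6%) and 472 had no early call. Of the 635 that fell late, 250 had risen early (39.4% and 24.6%) and 52 had fallen early (8.19% and 4.17%). Mitosis genes had 26 of 34 early rises and 0 early falls, with list medians from day 3 of 1.69 to 1.97 at day 1 and -2.62 to -1.88 at day 7 in the 3 libraries each. Cholesterol synthesis had 20 of 24 early falls (median -1.96). From day 1 to day 3, 14 of its genes rose (median 1.28), a larger step than its late rises (7 of 24, median 0.567). Immediate early genes had 14 of 22 early falls (median -1.86), and 11 of 22 fell late. Adipokines lay at -3.35 to -2.3 at day 1 and at 1.61 to 1.71 at day 7, so that the step of the list up to day 3 was the larger one. The matrix list lay at 1.28 to 1.77 at day 1 and at -0.493 to -0.373 at day 7.

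**Figure D5:**
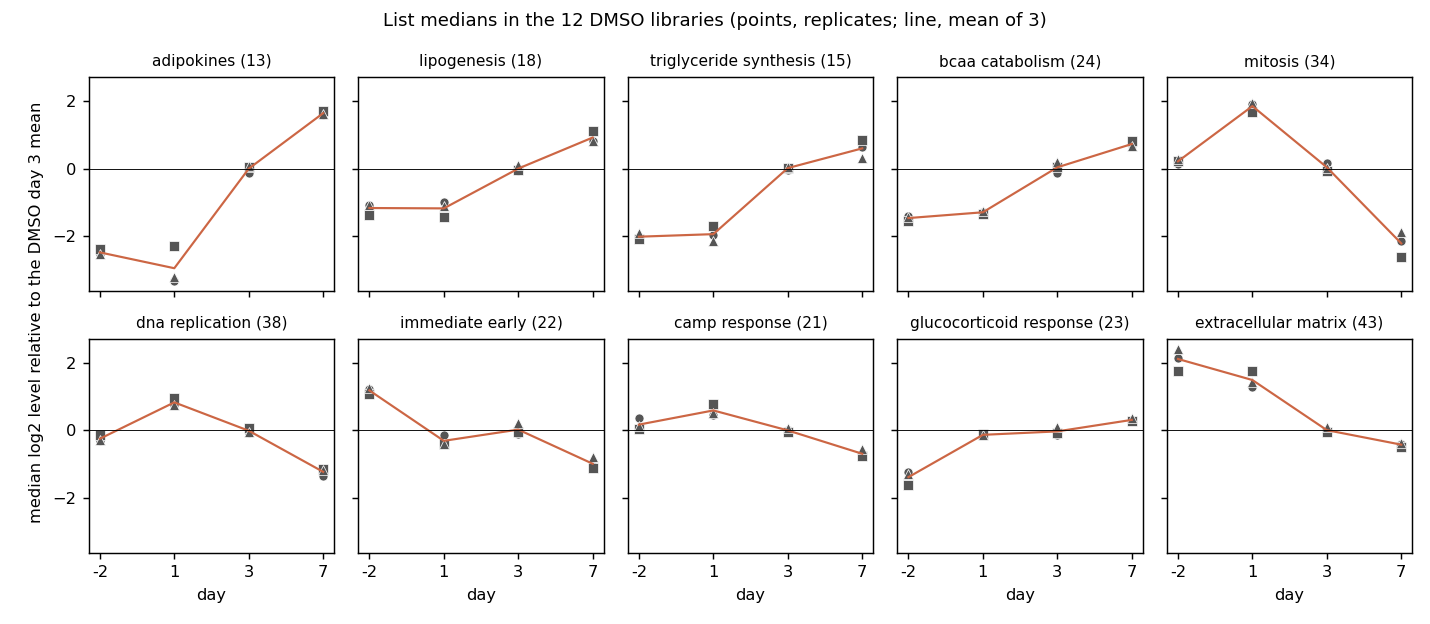
Median log2 level of the genes of 10 lists relative to the DMSO day 3 mean (y axis) in the 12 DMSO libraries; the x axis is the day, each point a library and the line joins the means of 3. Mitosis and DNA replication peak at day 1 and are lowest at day 7, and adipokine, lipid and branched-chain amino acid lists are highest at day 7.

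With ML-792 the change from day 3 to day 7 differed in 168 of 13274 genes in total reads: it was more positive than in DMSO in 87 (0.655%) and more negative in 81 (0.61%). The count was 536 with the replicate block, 87 with only days 3 and 7 in the fit, and 7, 292 and 10 without letter A, B or C on all days. Pip, which fell in DMSO, had 16.3, 31.7 and 41 normalized counts at day 3 and 8.6, 11.4 and 10.9 at day 7 under ML-792 (difference between treatments 5.68 ± 0.62 on the log2 scale, edgeR adjusted p = 6.6e-06). It was thus already low at day 3 in the treated cells. Mt2 rose in DMSO, whereas under ML-792 it had 27620, 23158 and 29417 and 21414, 16010 and 22433 (difference between treatments -2.27 ± 0.23 on the log2 scale, edgeR adjusted p = 2.08e-06). Retn rose more steeply under ML-792, from 1155, 947 and 867 to 19016, 17131 and 20307, since its day 3 level lay below that of DMSO (difference between treatments 2.59 ± 0.42 on the log2 scale, edgeR adjusted p = 0.000907). Tusc5 had 506, 251 and 499 and 594, 221 and 493 under ML-792 (difference between treatments -4.0 ± 0.54 on the log2 scale, edgeR adjusted p = 0.000143), so that its rise was seen in DMSO and not there. Its mean day 3 level was higher under ML-792 (418.6) than in DMSO (101.6). Without a letter on all days, these differences lost their call in Retn (edgeR adjusted p = 0.0958 without A and 0.135 without C), in Tusc5 (0.0398 and 0.0546) and, without A, in Mt2 (0.0127). Porcn, which acylates Wnt proteins, rose in DMSO from 140.0, 116 and 207 to 853, 1041 and 892 and under ML-792 had 1402, 862 and 1534 and 662, 291 and 445 (difference between treatments -4.03 ± 0.40 on the log2 scale, edgeR adjusted p = 2.08e-06). In labelled reads 0 genes were more positive (0%) and 1 more negative (0.0161%), with an unadjusted p under 0.05 for 147 and 387; the 1 gene, Fn1 (fibronectin), lost its call when 1 entry per gene was fitted.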

How the data were processed

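RNA of 24 3T3-L1 libraries (8 conditions, 3 replicates each) was sequenced as 3′ mRNA-Seq after alkylation of 4-thiouridine. Per the labels, reads were demultiplexed with bcl2fastq 2.17.1.14 and set on mm10. The authors mapped them with SlamDunk and deposited read counts per RefSeq 3′UTR entry, for total reads and for reads with T>C conversions. In both tables, 6 columns matched no sample and were not used. Depth is given with the results; reads carry no molecular identifiers, so counting intervals cover counting error only.

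The 12 DMSO libraries were fitted together in edgeR 4.0.16 (quasi-likelihood, robust; limma 3.58.1, R 4.3.3), with TMM factors of the total reads also used for labelled reads, filterByExpr (minimum count 10, total 15) over the 8 conditions, and Benjamini-Hochberg adjustment over all entries; a call is an adjusted p under 0.01. Of 91830 entries and 26995 genes, 13274 genes were tested in total and 6214 in labelled reads. The labelled share was tested with a term for each library. The ML-792 interaction was fitted on all 24 libraries. Named genes are the 10 highest and 10 lowest separated changes with a mean of at least 100 normalized counts, the called labelled genes (at most 15 each way), the 5 highest and 5 lowest interactions, and members of the gene lists; a few genes that this rule covers are not reported here. The comparison and the lists were chosen with earlier results of these data known. Same-letter libraries of days 3 and 7 deviated together in total reads (r = 0.146 for A, 0.157 for B and 0.123 for C) and hardly in labelled reads (0.0397, 0.059 and 0.034). The main fits held no term for the letter, so their errors and adjusted p values do not take this pairing into account. A fit with the replicate block is given where it moved a count. Alternatives were DESeq2 1.42.0, other filters, thresholds and library sets, the block, and leaving out libraries. The scripts were tested on simulated data. Entries could share reads with near-identical copies, and overlapping genes were not separated (Lctl lies on Zwilch, Cenpu beside Primpol, Csf1, Adm, Gpd1, Aldh1l1 and Aldh3b2 on predicted genes).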

Additional observations from a re-analysis of the deposited data

Results flagged for a closer look

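In 45 genes named by the rule or held by a list, the change of total reads from day 3 to day 7 differed between ML-792 and DMSO by a test of the difference itself (edgeR interaction, adjusted p under 0.01). Values are log2 differences, ML-792 minus DMSO. Among members of the adipokine, lipid, and insulin and glucose lists, the difference was positive in Adipoq (1.69) and Retn (2.59) and negative in Acot2 (-1.92), Cidea (-3.24), Gk (-1.93), Gpd1 (-1.69), Lipa (-0.971), Slc2a1 (-1) and Tusc5 (-4). Of the matrix list, it was positive in Col3a1 (1.31), Col4a1 (1.04), Fbn1 (1.56), Nid2 (1.97) and Tnc (2.23) and negative in Col18a1 (-1.19) and Lox (-1.94). Of the acute phase, chemokine, glucocorticoid and cAMP lists, it was positive in Ccl7 (2.44), Cxcl12 (1.38), Serpina3n (1.84), Cebpd (1.23), Nr4a1 (1.64) and Rgs2 (1.34) and negative in Lcn2 (-1.31), Mt1 (-1.47), Mt2 (-2.27), Trf (-3.35) and Tsc22d3 (-1.29). Of the remaining genes, it was positive in Alpk1 (5.36), Aurka (1.26), Cd44 (1.5), Fam107a (3.4), Pip (5.68), Prr5l (2.8), Serpina3k (7.36), Smim5 (3.51) and Sulf2 (1.67) and negative in Adgrd1 (-7.46), Aldh1l1 (-3.75), Cryab (-1.82), Ero1l (-2.2), Extl1 (-4.03), Krt9 (-4.1), Ly6a (-2.53), Mreg (-5.55) and Porcn (-4.03). Leaving out 1 DMSO library of day 3 or day 7 ended the call of Adgrd1, Adipoq, Alpk1, Aurka, Cebpd, Cidea, Col3a1, Cxcl12, Extl1, Fbn1, Lcn2, Lipa, Mreg, Mt1, Nr4a1, Slc2a1, Smim5, Trf and Tsc22d3. Leaving out letter A on all days also ended that of Acot2, Ccl7, Cd44, Col18a1, Col4a1, Fam107a, Gk, Gpd1 and Krt9. The same held for Lox, Mt2, Nid2, Retn, Rgs2, Serpina3k, Serpina3n, Tnc and Tusc5 (edgeR adjusted p = 0.0127 to 0.278 over both groups). The calls of Aldh1l1, Cryab, Ero1l, Prr5l and Sulf2 were not checked in this way. In labelled reads the difference was -2.89 in Fn1, whose call ended without day 3 A, day 3 C, day 7 A or day 7 C (edgeR adjusted p = 0.0414 to 0.108).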

How the results depend on the processing

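Counts of calls moved with the settings. With DESeq2 they were 2183 for total reads (1278 higher and 905 lower, against 1441), 50 for labelled reads (26 higher and 24 lower, against 22), 397 for the ML-792 interaction in total reads (against 168) and 9 in labelled reads (against 1). At an adjusted p under 0.05 they were 2559 (total), 45 (labelled), 3 (labelled share, against 1) and 394 (interaction). With the replicate block, which pairs libraries by letter, they were 2476, 54, 3 and 536, and 5 for the interaction in labelled reads. Fits of only days 3 and 7 called 52 labelled genes and 87 and 2 interactions. Without a filter the interactions were 268 and 3, and the shares 3; with entries of at least 10 reads in sum the labelled interaction and the share gave 3 each. With 1 entry per gene the share gave 3 and the labelled interaction 0; scaled by labelled reads, the labelled count was 37 and the labelled interaction 0. All 24 libraries together gave 4 shares, and subtracting the background of conversions gave 0. Leaving out libraries gave 251 to 1875 calls in total reads, 7 to 34 in labelled reads, 0 to 1 shares, 7 to 292 interactions in total and 0 to 5 in labelled reads. The labelled share of whole libraries did not move beyond its spread under the settings run.

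Comparisons of single genes covered named or listed genes that were called in the main fit, plus Pparg in total reads. Gains by other genes were therefore not counted, although calls over all genes in total reads rose from 1441 to 2183 with DESeq2. Of 3944 comparisons in total reads, 3386 stayed on their side of the threshold and 556 lost their call. A call was gained in 2 (both Pparg), and 0 changed direction among these genes. In labelled reads 332 of 436 kept the call and 104 lost it. In the interaction 456 of 640 kept it and 184 lost it. The cause of these changes was not tested. The total of 146222 to 190933 labelled reads per library limits what labelled reads can show.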
